A study of Mus musculus with 12 samples.

Results

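Metabotropic glutamate receptors are G protein-coupled receptors that respond to the transmitter glutamate. Here they are represented by *Grm2*, *Grm3*, *Grm4*, *Grm5*, *Grm7* and *Grm8*, chosen by gene symbol, and by every poly(A) site (PAS) listed under these symbols. These 6 genes hold 16 PAS entries, out of 16627 genes and 56204 entries in the deposited list. The study sequenced the 3′ ends of poly(A)+ transcripts (3′READS+) from hippocampal mini-slices of C57BL/6 mice aged 3 months according to the labels, with the dentate gyrus cut away. LTP slices were perfused with 50 uM forskolin, which activates adenylyl cyclase, and then with forskolin together with 30 mM KCl and 10 mM Ca2+, for 5 min each. Control slices received the vehicle, 0.2% DMSO, over 10 min. All slices were frozen 1 hr or 3 hr later, which gave 4 groups (control 1 hr, control 3 hr, LTP 1 hr, LTP 3 hr) of 3 libraries each. Each library comes from the pooled slices of 1 animal, and the slices of an animal were divided between LTP induction and control treatment. The paper identified its control 3 hr sample 3 as an outlier and left outliers out of its analysis of PAS use. Whether any listed site rests on that library was not examined here.

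The values below describe where ends of these receptors' transcripts were listed, not how many transcripts ended there. The 12 deposited columns of read numbers have names that occur in no label of the samples, so they could not be assigned to the groups. No comparison of LTP with control slices is therefore given. Reads summed over all columns would need no such assignment, but the columns were not used, so no level or depth is given either. The list has no replicate error, since it is 1 list for all libraries. Whether a listed site had many reads or few is not part of any value below. The list holds more PASs, in more genes, than the paper reports. The paper's per-library counts of PASs were limited by read number and relative abundance, and no such limit was applied here. Positions are in mm9, the build that the submitters' processing notes name.

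The receptors fall into 3 groups by sequence and signalling. Group I, with *Grm5*, couples to Gq and phospholipase C, sits mainly at the edge of the postsynaptic density of excitatory synapses and is bound there by Homer proteins. Group II (*Grm2*, *Grm3*) and group III (*Grm4*, *Grm7*, *Grm8*, and *Grm6* of the retina) couple to Gi/o and lower cAMP, and many of them act on presynaptic terminals to reduce transmitter release, while *Grm3* is also made by astrocytes. In a gene with several PASs, cleavage in the 3′-most exon at one site or another changes the length of the 3′UTR, and cleavage in an intron gives a transcript that lacks the downstream exons.

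All 6 genes had at least 1 PAS in the 3′-most exon, the sites labelled exon3. Of the 16 entries, 11 were exon3 sites and 5 were intronic, and no other region label occurred. Intronic sites thus made up 31.2% of the entries of the receptors, beside 32.7% of the intronic and exon3 entries over all listed genes. The paper reports a smaller intronic share among its own PASs, so both shares describe this list only. An intronic site was listed for 4 of the 6 receptors (66.7%), beside 33.5% of all listed genes. These were *Grm3*, *Grm4*, *Grm7* and *Grm8*, that is, the 3 listed group III receptors and 1 of the 2 group II receptors. None of the 6 had a site upstream and antisense to the gene (label UA) or beyond the annotated end (label exon3ext), whereas 23.9% of all listed genes had a site with either label. The number of PASs per receptor ran from 1 to 4 with a median of 3, beside a median of 2 and a range of 1 to 40 over all listed genes. No PAS of the receptors was listed under a second gene.

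**Figure D1:**
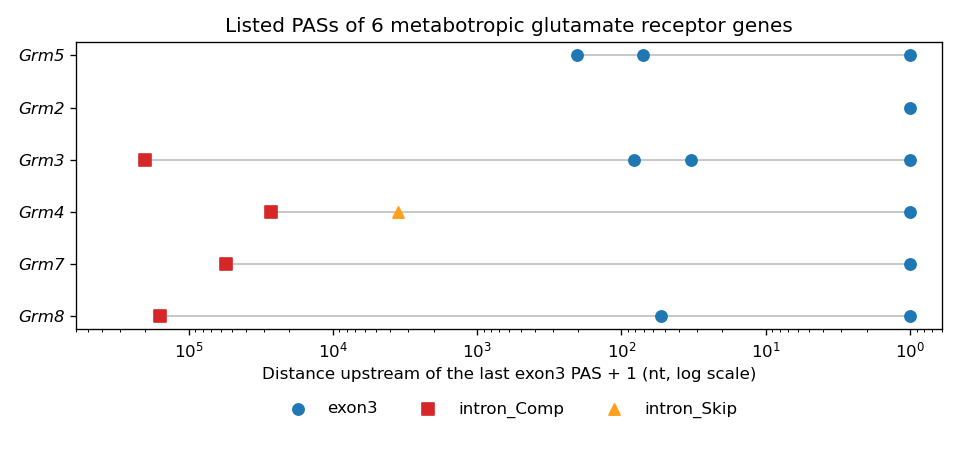
Each point is a listed PAS, placed by its distance upstream of the last exon3 PAS of its gene plus 1 nt (log scale, nt), so that the last exon3 PAS sits at the right edge and transcription runs from left to right. Rows are the 6 genes, circles are exon3 sites, squares intronic sites labelled intron_Comp and the triangle the site labelled intron_Skip. The exon3 sites of a gene lie within 203 nt of each other, and the 5 intronic sites lie 3517 nt to 200096 nt upstream of the last exon3 site.

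*Grm5* (ENSMUSG00000049583.15), the group I receptor among the 6, lies on the plus strand of chromosome 7 and was listed with 3 exon3 PASs and no intronic site. Its sites were at 95283214, 95283347 and 95283417. The first pair was 133 nt apart and the second pair 70 nt apart, so that use of the first site in place of the last would shorten the 3′UTR by 203 nt. Among the 7465 genes with at least 2 exon3 PASs on one chromosome and strand, 21.0% had a shorter distance between their outermost exon3 sites. All of the listed ends of *Grm5* are thus labelled as lying in the 3′-most exon.

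*Grm2* (ENSMUSG00000023192.12), a group II receptor on the minus strand of chromosome 9, had the simplest entry. It was listed with a single exon3 PAS at 106546865, as were 29.1% of all listed genes, for which no alternative site is listed. *Grm3* (ENSMUSG00000003974.6), the other group II receptor, had the most sites of the 6, with 4. On the minus strand of chromosome 5, its intronic site (label intron_Comp) was at 9685334, and its exon3 sites followed at 9485319, 9485270 and 9485238. The exon3 sites were 49 nt and 32 nt apart and spanned 81 nt, a span that was shorter in 9.83% of the genes with at least 2 exon3 sites. The intronic site lay 200015 nt upstream of the first exon3 site. The group II genes thus differ in the list both in the number of 3′UTR ends and in the presence of an intronic one.

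The 3 group III genes, whose products are mostly presynaptic, each had an intronic PAS. *Grm4* (ENSMUSG00000063239.17), on the minus strand of chromosome 17, had 1 exon3 PAS at 27559332 and 2 intronic PASs upstream of it. The first, labelled intron_Comp, was at 27586328. The second, labelled intron_Skip, was at 27562849, 23479 nt further downstream and 3517 nt before the exon3 site. In the usual naming of intronic sites, a composite site extends an exon into the following intron, and a skipped site lies in a terminal exon that the full-length transcript leaves out. *Grm4* was the only one of the 6 genes with an intron_Skip site, and 547 listed genes (9.82% of those with an intronic site) had sites of both kinds.

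*Grm7* (ENSMUSG00000056755.13), on the plus strand of chromosome 6, had 1 intronic PAS at 111461807 (intron_Comp) and 1 exon3 PAS at 111517224, 55417 nt downstream. *Grm8* (ENSMUSG00000024211.15) lies on the minus strand of the same chromosome. Its intronic PAS was at 27383344 (intron_Comp), 158171 nt upstream of the first of its exon3 sites, and the exon3 sites at 27225173 and 27225121 were only 52 nt apart. A shorter exon3 span was found in 6.14% of the genes with at least 2 exon3 sites. Counting genes with intronic and exon3 sites and no other label, an intronic site together with a single exon3 site, as in *Grm4* and *Grm7*, occurred in 7.84% of all listed genes, and together with 2 or more exon3 sites, as in *Grm3* and *Grm8*, in 10.3%.

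Tandem exon3 sites were thus close together in each of the 3 receptors that had them. The 5 gaps between neighbouring exon3 sites in *Grm3*, *Grm5* and *Grm8* were 32 nt to 133 nt with a median of 52 nt, beside a median of 259 nt over all 16203 such gaps in the list. Gaps of 133 nt or less made up 35.2% of all gaps. The outermost exon3 sites were 52 nt, 81 nt and 203 nt apart in *Grm8*, *Grm3* and *Grm5*, beside a median of 817 nt over all genes with such a pair. The authors merged PASs within 24 nt of each other, so that ends closer than this appear as 1 site. With 3 genes, these distances are a description and were not tested.

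**Figure D2:**
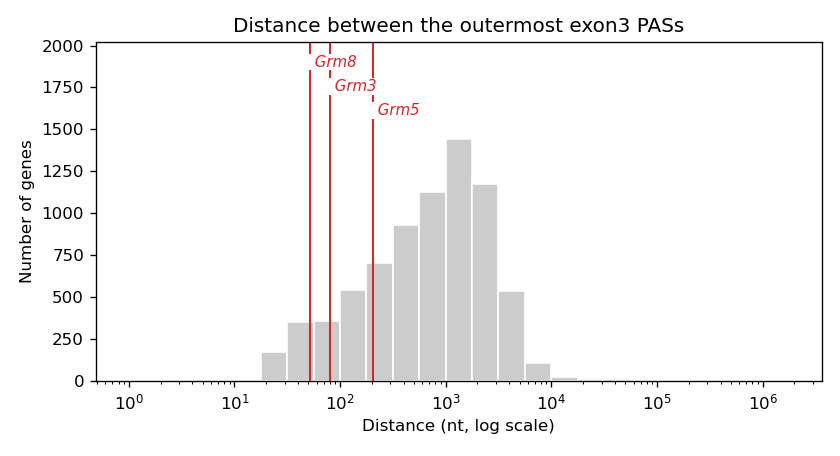
Bars count the listed genes by the distance between their outermost exon3 PASs (nt, log scale), for the 7465 genes with at least 2 such sites. Red lines mark *Grm8* at 52 nt, *Grm3* at 81 nt and *Grm5* at 203 nt, all below the median of 817 nt.

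The intronic sites, in contrast, lay far upstream of the first exon3 site in 3 of the 4 receptors with one. The distance from the intronic site nearest to the last exon to the first exon3 site was 3517 nt in *Grm4*, 55417 nt in *Grm7*, 158171 nt in *Grm8* and 200015 nt in *Grm3*. Over the 4829 listed genes with such a distance, the median was 9412 nt and the 75th percentile 24687 nt. A shorter distance was found in 26.0% of these genes for *Grm4*, 89.3% for *Grm7*, 97.5% for *Grm8* and 98.4% for *Grm3*. The distances were not scaled to the length of the gene, which limits how large they can be. In these 4 receptors, no site of another gene was listed between the first and the last PAS, on either strand. This stretch was 26996 nt long in *Grm4*, 55417 nt in *Grm7*, 158223 nt in *Grm8* and 200096 nt in *Grm3*. The share of all listed genes for which the same holds was not computed. Downstream on the same strand, the nearest site of another gene was 154270 nt beyond the last PAS of *Grm5* (a site of *Ctsc*) and 1503903 nt beyond that of *Grm8* (a site of *Pot1a*), the shortest and the longest such distance among the 6.

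**Figure D3:**
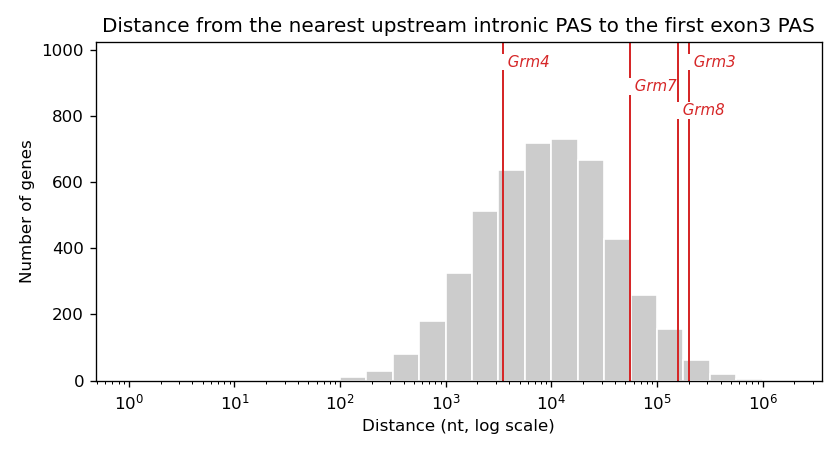
Bars count the listed genes by the distance from their nearest upstream intronic PAS to the first exon3 PAS (nt, log scale), for 4829 genes. Red lines mark *Grm4* at 3517 nt, below the median of 9412 nt, and *Grm7* at 55417 nt, *Grm8* at 158171 nt and *Grm3* at 200015 nt, above the 75th percentile of 24687 nt.

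*Gabbr1* and *Gabbr2*, the genes of the GABA-B receptor, which belongs to the same class of receptors, had 3 and 9 PASs. Of these, 1 and 7 were intronic, and their exon3 spans were 1141 nt and 544 nt. Intronic sites made up 66.7% of the intronic and exon3 entries of this pair. The nearest intronic site lay 23680 nt upstream of the first exon3 site in *Gabbr1* and 35887 nt in *Gabbr2*, also above the median of 9412 nt over the whole list.

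The ionotropic glutamate receptors, which are ion channels, served for comparison. An intronic site was listed for 10 of their 16 subunit genes (62.5%), beside 4 of 6 metabotropic receptors. Intronic sites made up 67.9% of their intronic and exon3 entries, against 31.2% for the metabotropic receptors. *Grin2a*, *Grin2d* and *Grin3a*, NMDA subunits listed with no exon3 site, held 28 of these 55 intronic entries, and without these 3 genes the share was 50.9%. By family, that share was 52.6% for the 4 AMPA subunits, 81.0% for the 7 NMDA subunits and 55.0% for the 5 kainate subunits. The AMPA and NMDA values rest on few genes. *Gria3* held 9 of the 10 intronic AMPA entries, and the share of the other 3 AMPA genes was 12.5%, while the NMDA share was 42.9% without the 3 genes that have no exon3 site. The values that leave out genes were added after the data were seen. Exon3 spans were available for 7 of the ionotropic genes, with a median of 1557 nt and a range of 30 nt (*Grik1*) to 2759 nt (*Gria2*). The metabotropic spans of 52 nt to 203 nt lie at the low end of this range, where *Grik1* and *Grik3* (105 nt) also lie. Distances from the nearest upstream intronic site to the first exon3 site were available for 7 ionotropic genes, with a median of 18029 nt. They ran from 1203 nt in *Grik5* to 59684 nt in *Gria4*. The distance of *Gria4* exceeded that of *Grm7*, while those of *Grm8* and *Grm3* were longer than any of them. Sites of 1 gene share their source and the lists are small, so these differences were not tested.

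Of 15 genes that carry the receptors' signals, all were listed, with 1 to 20 PASs each and a median of 4. Of these, 7 (46.7%) had an intronic site and 12 had 2 or more exon3 sites, with a median span of 741 nt. The distance from the nearest intronic site to the first exon3 site had a median of 5429 nt over these 7 genes, below the median of 9412 nt over the whole list. The 75th percentile of the 7 distances was 40313.5 nt, above that of the whole list (24687 nt). The 6 exon3 spans among the genes of group I signalling ran from 205 nt in *Gnaq*, the alpha subunit of Gq, to 8856 nt in *Homer2*, a Homer scaffold, with a median of 1091.5 nt. The 6 spans among those of group II and III signalling ran from 65 nt in *Gnao1*, the alpha subunit of Go, to 7851 nt in *Adcy1*, an adenylyl cyclase, with a median of 569 nt. Intronic distances in the latter list were 1255 nt in *Gnai1*, 5429 nt in *Adcy8*, 37402 nt in *Gnao1* and 97751 nt in *Kcnj3*, a potassium channel subunit opened by G proteins. Among the genes of group I signalling they were 1389 nt in *Plcb4*, 2003 nt in *Homer3* and 43225 nt in *Homer1*.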

How the data were processed

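3′READS+ libraries were made from 12 samples in 4 groups. Per the labels and the study's methods, the authors mapped the reads to mm9 with Bowtie2, used reads with unaligned Ts to identify PASs, merged PASs within 24 nt and deposited 1 table for all libraries with the position, strand and region label of each PAS. Region labels are the authors' own, read here by their wording since no definition was found. The 12 columns of read counts were not matched to samples, because their names match no label and columns were not assigned by order or totals. The planned edgeR test of LTP against control, and its alternatives, were therefore not run. A sum of reads per site over all columns, which needs no such match, was not taken either. The members and lists were chosen with earlier results of these data known. All 6 members are named, and other genes come from lists of signalling partners, class C receptors and ionotropic subunits. Sites per gene, label shares and distances were computed with Python 3.11.15, pandas 2.3.3, numpy 2.4.6 and scipy 1.17.1, drawn with matplotlib 3.10.9, and the counting was tested on simulated data. Ensembl identifiers were matched by symbol. All sites of only 1 of the 6 genes fell within 100 nt of its GRCm38 gene, so no coordinates or sequences of that build were used, and the poly(A) signal upstream of the PASs was not analysed here. Other members of the receptor family are not reported here.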

Additional observations from a re-analysis of the deposited data

How the results depend on the processing

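The number of PASs per receptor, the intronic share of 31.2% and the exon3 spans were recomputed without UA sites, without sites listed under more than 1 gene, with exon3ext sites added or over all region labels, as each applied. All 17 recomputed values were identical to those reported, because the 6 genes hold no UA, exon3ext or shared sites, so these settings say nothing about stability. No paired analysis was possible because no column of reads could be tied by name to an animal. The fits with a replicate block, with DESeq2, with no filter and without each replicate were not run for the same reason, and the wider window for poly(A) signals was not run because no mm9 genome was used here. Each listed site counts once, whatever its number of reads.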
